A study of Mus musculus with 3 samples.

Results

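The genes described here are 37 regulators and machines of mitosis, chosen by name: the kinases and cyclins that start it, the kinetochore and spindle proteins that move chromosomes, and the enzymes that end it. All 37 were found among the 50043 gene IDs of the FPKM table (fragments divided by gene length and library size). The cells were KH2 mouse embryonic stem cells carrying an inducible knockout of Pold3, and RNA of passages P0, P1 and P2 was sequenced in a single library each. KH2 cells are known to carry a tetracycline-responsive activator and a docking site for inducible constructs. The line and the inducible allele are shared by all 3 libraries, and the time of induction is not stated in the labels. The labels name no control line grown for the same passages, so passage and loss of Pold3 cannot be told apart. Pold3, an accessory subunit of DNA polymerase delta, measured 49.2 FPKM at P0, 13.0 at P1 and 11.6 at P2.

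Mitosis is driven by cyclin-dependent kinase 1 bound to cyclin B, which is switched on by CDC25 phosphatases and helped by Polo and Aurora kinases. Kinetochores tie chromosomes to spindle microtubules, and the spindle checkpoint holds back the ubiquitin ligase APC/C until every kinetochore is attached. APC/C with its activator CDC20 then has securin and cyclin B destroyed, which frees separase to cut cohesin. Messages of most of these genes are known to peak in G2 and mitosis, and embryonic stem cells, which divide rapidly, are known to express them strongly. In a bulk library, fewer cells in G2 or mitosis and less message per such cell cannot be told apart.

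Late cell cycle promoters are known for the cell cycle homology region, a short element with the core TTTGAA or a close variant, and for CCAAT boxes bound by NF-Y. The MuvB complexes DREAM, which represses, and MMB, which activates, act through the cell cycle homology region. RefSeq promoter windows (build GRCm38.p6, 250 bases before to 50 after the start) matched 31 of the 37 genes. Those without an entry were Ccna2, Cdc25c, Tpx2, Aurkb, Incenp and Kif20a. On either strand, TTTGAA was in a window of 22 of the 31 genes, and in 20.2% of the 27025 genes with windows. The variants TTTAAA and TTCGAA were in 9 and 4 of the 31, against 14.9% and 1.80% of all. CCAAT was in 24 of 31 genes and in 41.1% of all, and 24 of 31 held CCAAT together with at least 1 of the other 3 motifs, against 12.8% of all. The windows of Mad2l1, Nuf2, Nusap1 and Pttg1 held none of the 4 motifs, which says only that these letters were not in those bases. The 250 bases before the start are given for a few genes. Cdk1 and Ccnb1 are the engine of mitotic entry. Cdc20 had the highest level at P2, Mki67 the lowest ratio at P2 over P0, and Spc25 the highest ratio. Capitals mark the 4 motifs on either strand.
Cdc20, chr4:118437344-118437593, minus strand: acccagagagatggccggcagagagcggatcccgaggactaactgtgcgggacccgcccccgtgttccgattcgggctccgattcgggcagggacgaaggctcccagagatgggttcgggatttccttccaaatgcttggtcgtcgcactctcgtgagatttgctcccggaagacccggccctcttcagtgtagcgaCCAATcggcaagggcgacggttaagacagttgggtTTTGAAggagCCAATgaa
Cdk1, chr10:69352913-69353162, minus strand: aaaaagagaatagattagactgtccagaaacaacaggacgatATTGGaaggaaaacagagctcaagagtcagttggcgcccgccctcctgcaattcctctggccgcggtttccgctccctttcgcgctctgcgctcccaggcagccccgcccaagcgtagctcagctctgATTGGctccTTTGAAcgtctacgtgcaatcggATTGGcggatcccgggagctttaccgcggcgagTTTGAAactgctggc
Ccnb1, chr13:100786487-100786736, minus strand: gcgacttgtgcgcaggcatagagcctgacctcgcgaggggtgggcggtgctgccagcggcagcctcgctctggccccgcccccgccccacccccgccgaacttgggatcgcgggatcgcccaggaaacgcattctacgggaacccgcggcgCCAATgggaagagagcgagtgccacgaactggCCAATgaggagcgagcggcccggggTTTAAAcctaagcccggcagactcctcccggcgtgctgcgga
Mki67, chr7:135716380-135716629, minus strand: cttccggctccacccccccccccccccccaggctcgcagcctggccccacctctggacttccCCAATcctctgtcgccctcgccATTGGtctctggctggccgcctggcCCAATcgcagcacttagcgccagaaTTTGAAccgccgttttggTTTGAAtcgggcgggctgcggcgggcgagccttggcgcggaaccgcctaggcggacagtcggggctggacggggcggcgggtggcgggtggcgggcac
Spc25, chr2:69206214-69206463, minus strand: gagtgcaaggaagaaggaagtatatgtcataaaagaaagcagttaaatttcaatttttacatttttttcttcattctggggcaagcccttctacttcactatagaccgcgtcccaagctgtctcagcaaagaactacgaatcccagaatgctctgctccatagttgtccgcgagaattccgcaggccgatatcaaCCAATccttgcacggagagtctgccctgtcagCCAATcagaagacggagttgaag
In Ccnb1, 2 CCAAT boxes began 32 bases apart, 99 and 67 bases before the start, ahead of TTTAAA at 42 bases. The same spacing of 32 bases was found in Spc25, at 55 and 23 bases before the start, and between the last 2 CCAAT sites of Cdk1. In Cdc20, TTTGAA began 18 bases before the start. In Mki67, 3 CCAAT sites stood ahead of 2 copies of TTTGAA, at 116 and 98 bases. In Spc25 the only TTTGAA began 24 bases past the start and lies outside the bases printed. The median P2 to P0 difference in log2(FPKM + 1) was 0.00 over the 22 genes with TTTGAA and -0.06 over the 9 without, and -0.02 over the 24 with CCAAT and 0.08 over the 7 without. A match is a description of sequence and does not show that a factor binds there.

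All 37 genes were expressed in all 3 libraries, and none differed between any 2 passages by 2-fold. A gene counted as higher or lower when log2(FPKM + 1) differed by at least 1 (2-fold) or by 1.5-fold on that scale, among IDs that reached FPKM 1 in at least 1 of the libraries compared. All 37 met this floor. Single libraries allow no test, so no p-values are given, and nothing here measures the spread between cultures. The median level of the 37 was 90.3 FPKM at P0, 93.3 at P1 and 94.95 at P2, and their summed level 4537, 4424 and 4667 FPKM. Levels ran from 12.7 to 573 FPKM at P0, from 11.5 to 531 at P1 and from 9.86 to 607 at P2. The median stood at percentile 88.2, 88.8 and 89.0 of the IDs with FPKM of at least 1, and the lowest of the 37, Cdc25c, at 47.6, 46.9 and 43.7. Reads were recovered from the FPKM values, and the 37 genes held 179735 of 23213528 reads at P0, 134520 of 18059914 at P1 and 171978 of 22405670 at P2. That was 0.774%, 0.745% and 0.768% of each library.

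**Figure D1:**
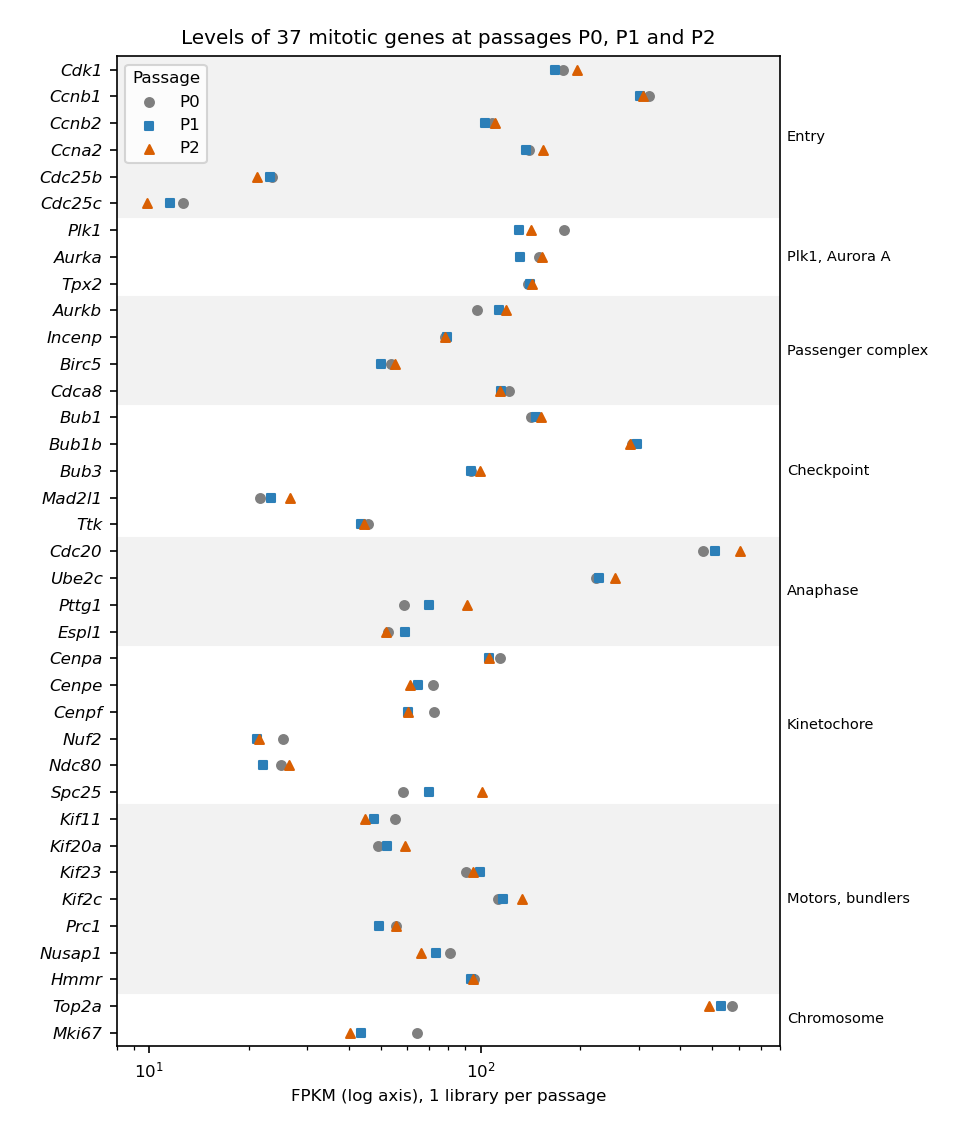
FPKM (log axis) of each of the 37 mitotic genes, grouped by role, in the single library of P0 (grey circles), P1 (blue squares) and P2 (orange triangles). For most genes the 3 points nearly coincide, and Spc25, Pttg1 and Mki67 have their P0 and P2 points farthest apart.

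At P1 against P0, 0 of the 37 were 2-fold higher or lower, where 4.12% of 13288 IDs were higher and 0.549% lower. Past 1.5-fold the counts were again 0 and 0, against 11.4% and 2.39% of all IDs. The median difference in log2(FPKM + 1) was -0.07 over the 37 and 0.06 over all IDs, with 15 of the 37 higher by any amount, against 57.6% of all, and 22 lower, against 42.4%. At P2 against P0, 0 of 37 passed 2-fold, against 6.72% higher and 1.16% lower of 13472 IDs. Pttg1 and Spc25 were 1.5-fold higher and Mki67 was 1.5-fold lower, so 2 of 37 and 1 of 37, where 15.6% and 4.31% of all IDs were. The median difference was 0.00 over the 37 and 0.07 over all IDs, with 18 members higher by any amount, against 57.7% of all, and 19 lower, against 42.3%. At P2 against P1, 0 of 37 passed 2-fold, against 0.780% higher and 0.883% lower of 13585 IDs, and 0 passed 1.5-fold, against 3.61% and 2.57%. Here 25 of 37 were higher by any amount, against 53.8% of all, 12 were lower, against 46.2%, and the medians were 0.03 and 0.02.

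The 37 genes were also close to each other. The interquartile range of their differences was 0.19 at P1 and 0.28 at P2 against P0, and over all IDs tested it was 0.43 and 0.53. At P2 against P1 the ranges were nearer, 0.24 over the 37 and 0.29 over all IDs. Differences within 0.25 of 0 were found for 33 of the 37 at P1 and 25 at P2, against 57.2% and 49.5% of all IDs. All IDs include low genes with a larger counting error than these 37. Median-of-ratios scaling, which lines libraries up on the typical gene, lowered the log2 of each P1 to P0 ratio by 0.12 and that of each P2 to P0 ratio by 0.13, and differences in log2(FPKM + 1) by slightly less. The median of the 37 lay 0.13 below that of all IDs at P1 and 0.07 below it at P2 as deposited, and 0.14 and 0.08 below it with that scaling. With quantile normalization it lay 0.05 below at P1 and 0.01 above at P2. With a floor of FPKM 5 it lay 0.10 below at P1 and 0.04 below at P2.

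**Figure D2:**
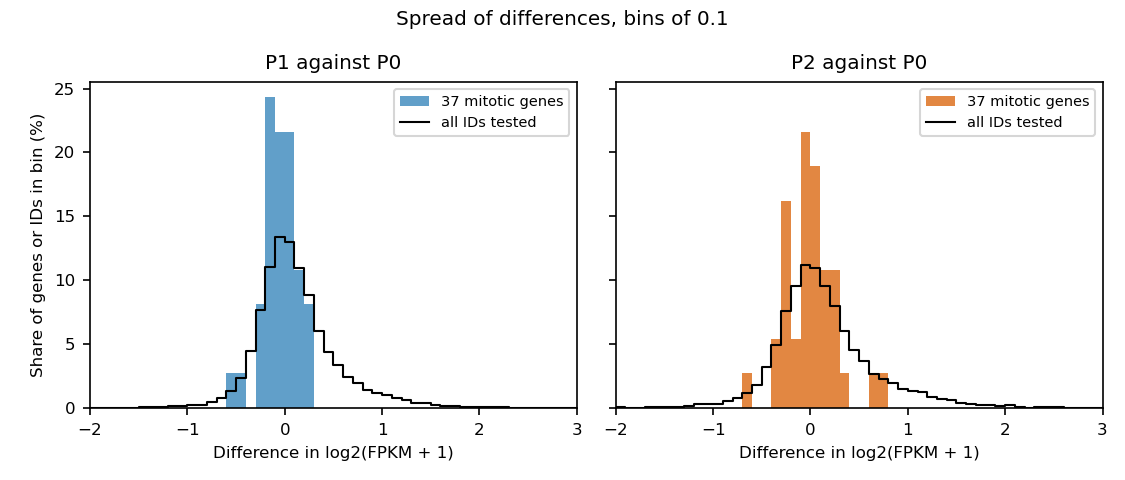
Share of genes (%) in bins of 0.1 of the difference in log2(FPKM + 1), at P1 against P0 (left) and P2 against P0 (right), for the 37 mitotic genes (bars) and all IDs tested (black line). At P2 the 37 genes lie between -0.65 and 0.78, while the line has a tail to the right past 1 at both passages.

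The 6 genes of mitotic entry were all lower at P1 than at P0, and 3 of them were higher at P2. Ccnb1, which encodes cyclin B1, was the third most abundant of the 37, at 321, 301 and 309 FPKM at P0, P1 and P2. Cdk1, its kinase partner, measured 177, 168 and 195 FPKM. Ccnb2, the other mitotic B cyclin listed, measured 108, 103 and 110.2 FPKM, and Ccna2, cyclin A2, which acts from S phase on, 140.1, 137 and 154. All 4 were lowest at P1, by at most 1.16-fold against P2, the value of Cdk1 (interval 1.11 to 1.21). Intervals here are exact 95% intervals on the reads of 2 libraries, so they compare libraries and cover counting error only. The activating phosphatase genes Cdc25b and Cdc25c were the lowest of this group. Cdc25b measured 23.6, 23.1 and 21.2 FPKM, and Cdc25c, the least abundant of all 37 in each library, 12.7, 11.5 and 9.86. At P2 Cdc25c stood at 0.778 of its P0 level (interval 0.685 to 0.884).

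Among the Polo and Aurora kinases, Plk1 was lower and Aurkb higher in both later libraries. Plk1, the Polo kinase that acts at entry, spindle assembly and cytokinesis, measured 179, 131 and 142 FPKM. Its ratio was 0.732 at P1 over P0 (interval 0.699 to 0.768) and 0.796 at P2 over P0 (interval 0.763 to 0.831), and its P2 level lay a little above that of P1. Aurka, the spindle pole kinase, measured 150.3, 132 and 153 FPKM, and Tpx2, which activates Aurora A on microtubules, 139, 141 and 143. Only P1 was low for Aurka, and the interval of each Tpx2 ratio held 1. Aurkb, the catalytic subunit of the chromosomal passenger complex, measured 97.5, 114 and 119 FPKM, a ratio of 1.22 at P2 over P0 (interval 1.15 to 1.29). Its 3 partners had ratios between 0.939 and 1.03 at P2 over P0. Incenp, the scaffold, measured 78.3, 79.1 and 78.1 FPKM, Birc5, survivin, 53.6, 49.9 and 55.1, and Cdca8, borealin, 122, 115 and 115.

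The 5 spindle checkpoint genes stayed within 1.23-fold of P0. Bub1b, which encodes BubR1, part of the complex that inhibits APC/C, was the most abundant gene of this group at 286, 297 and 282 FPKM. Bub1, a kinetochore kinase, measured 141, 147 and 152 FPKM, and Bub3, which recruits both to kinetochores, 93.3, 93.8 and 99.8. Mad2l1, which encodes the MAD2 protein that captures CDC20, had the largest difference here, at 21.7, 23.4 and 26.7 FPKM, a ratio of 1.23 at P2 over P0 (interval 1.15 to 1.32). Ttk, the kinase MPS1 that starts checkpoint signalling, measured 45.9, 43.6 and 44.3 FPKM, and all its intervals held 1.

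The 4 genes of anaphase and mitotic exit were all higher at P1 than at P0 as deposited, and 3 were highest at P2. The P1 over P0 interval of Ube2c held 1 (0.990 to 1.06), and with median-of-ratios scaling its P1 difference was -0.08 and that of Cdc20 0.00. Cdc20, the APC/C activator, measured 469, 509 and 607 FPKM, with a ratio of 1.29 at P2 over P0 (interval 1.26 to 1.33). Ube2c, the ubiquitin-conjugating enzyme of APC/C, measured 222, 228 and 254 FPKM. Pttg1, securin, the inhibitor of separase, measured 58.8, 69.9 and 90.99 FPKM from 1057, 979 and 1580 reads. Its ratio was 1.55 at P2 over P0 (interval 1.43 to 1.68) and 1.30 at P2 over P1 (interval 1.20 to 1.41), so each library was above the one before. Espl1, separase itself, measured 52.7, 59.3 and 51.9 FPKM and was highest at P1.

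Of the 6 kinetochore genes, Spc25 had the largest difference above P0 of the 37, at 58.1, 69.7 and 101 FPKM from 1389, 1295 and 2324 reads. The ratio was 1.20 at P1 over P0 (interval 1.11 to 1.29), 1.73 at P2 over P0 (interval 1.62 to 1.85) and 1.45 at P2 over P1 (interval 1.35 to 1.55). SPC25 is 1 of 4 subunits of the NDC80 complex, the main microtubule coupler. Ndc80 measured 24.95, 22.1 and 26.4 FPKM, with a ratio of 1.06 at P2 over P0 (interval 0.979 to 1.14), and Nuf2 25.3, 21.1 and 21.5, with a ratio of 0.851 (interval 0.782 to 0.927). Spc24, named here after its values were seen, measured 113, 104 and 108 FPKM. The intervals of Ndc80 and Nuf2 lay wholly below that of Spc25. Of the remaining members, Cenpa, the centromeric histone H3 variant, measured 115, 106 and 106 FPKM. Cenpe, a kinetochore motor, measured 72.0, 64.7 and 61.2 FPKM, and Cenpf, a large coiled-coil protein of the outer kinetochore, 72.3, 60.3 and 60.4. Both were highest at P0, with ratios of 0.849 (interval 0.808 to 0.893) and 0.836 (interval 0.804 to 0.870) at P2 over P0.

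The 7 motors and microtubule binding proteins lay on both sides of P0. Kif11, the motor Eg5 that pushes spindle poles apart, measured 55.2, 47.6 and 44.9 FPKM, and Nusap1, a microtubule-binding protein of the spindle, 81.0, 73.6 and 66.1. At P2 over P0 their ratios were 0.814 (interval 0.784 to 0.845) and 0.817 (interval 0.776 to 0.859). Kif20a, a motor of the central spindle, measured 48.9, 52.2 and 59.1 FPKM, and Kif2c, a microtubule depolymerase at centromeres, 113, 116 and 133. At P2 over P0 their ratios were 1.21 (interval 1.16 to 1.26) and 1.18 (interval 1.12 to 1.24). Exons of Kif20a share 1271 bases with Cdc23 on the opposite strand, and Cdc23 measured 92.9, 108 and 117 FPKM. No source used here gives the strand of the libraries, so reads of the 2 genes cannot be told apart. The same holds for 510 exon bases of Ccna2 shared with Exosc9 (31.3, 33.7 and 36.1 FPKM), 911 of Prc1 with Rccd1 (8.83, 10.6 and 8.23 FPKM) and 232 of Cdca8 with 9930104L06Rik (11.7, 15.1 and 14.2 FPKM), and for shorter or lower overlaps of Ube2c, Cdc20, Nusap1, Cdc25b, Plk1 and Cdc25c. Kif23, a subunit of centralspindlin, measured 90.3, 99.3 and 94.5 FPKM. Prc1, which bundles midzone microtubules, measured 55.4, 49.4 and 55.4 FPKM, and Hmmr, a spindle-associated protein, 95.5, 93.3 and 94.95.

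Both genes of chromosome structure were lower at P1 and P2 than at P0. Top2a, the topoisomerase that untangles sister chromatids, measured 573, 531 and 489.7 FPKM, the highest level of the 37 at P0 and P1. Its ratio was 0.854 at P2 over P0 (interval 0.838 to 0.871). Mki67, which coats mitotic chromosomes and is used as a proliferation marker, measured 64.1, 43.5 and 40.4 FPKM from 7918, 4176 and 4819 reads. Most of its difference was present at P1, where the ratio to P0 was 0.678 (interval 0.653 to 0.704); at P2 it was 0.631 (interval 0.608 to 0.654). Mki67 and Plk1 were the only members with a difference beyond 0.40 below P0 at P1, at -0.55 and -0.45.

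**Figure D3:**
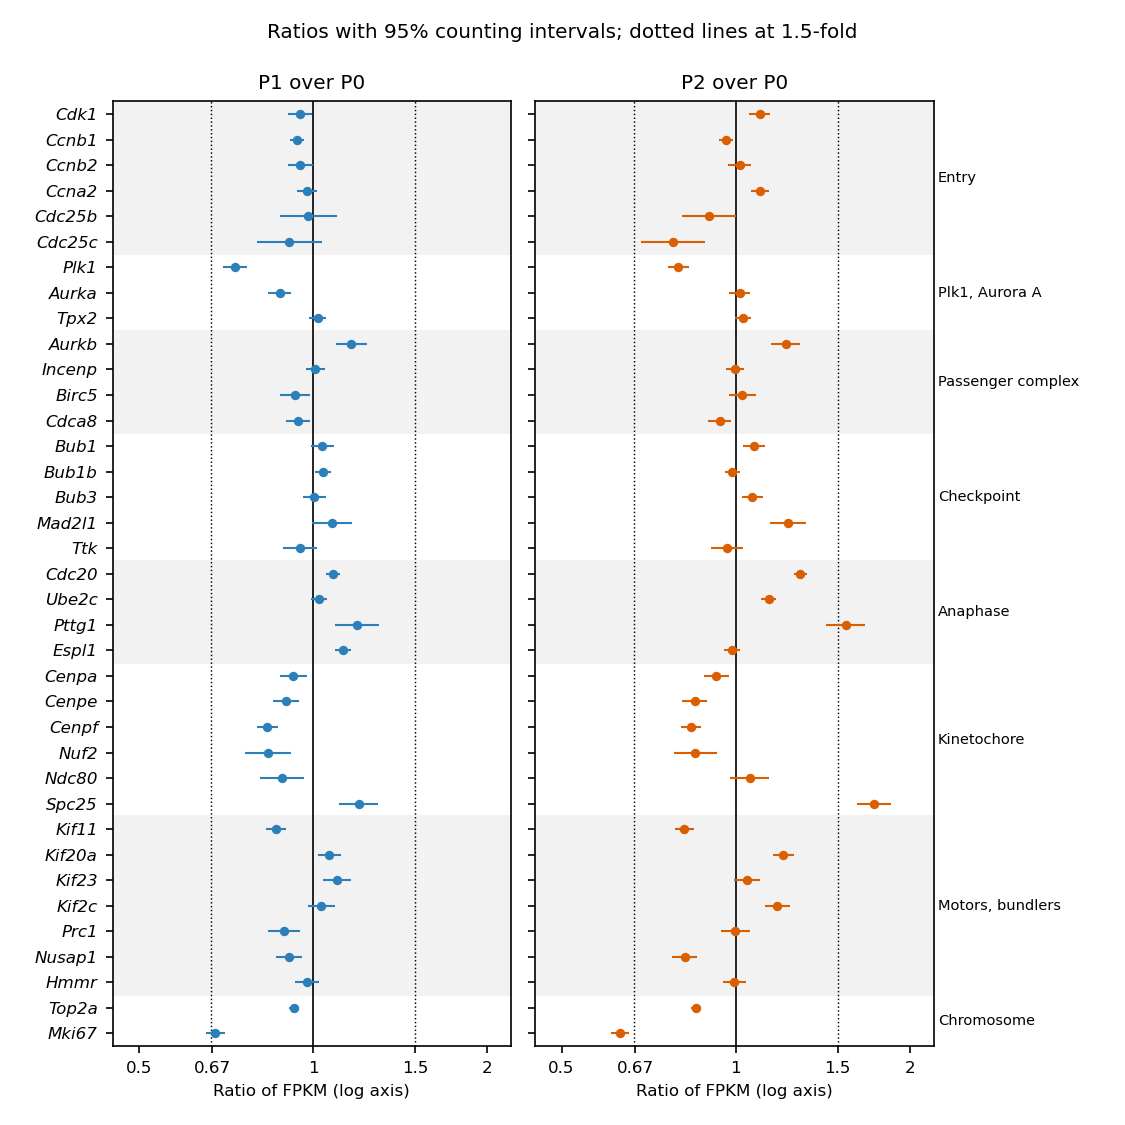
Ratio of FPKM at P1 over P0 (left) and P2 over P0 (right) for each gene, on a log axis, with exact 95% intervals for counting error; dotted lines mark 1.5-fold. At P1 every gene lies between the dotted lines, with Mki67 lowest at 0.678, and at P2 Spc25 (1.73) and Pttg1 (1.55) lie above and Mki67 (0.631) below.

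Over the 3 passages, 11 genes were higher in each library than in the one before: Tpx2, Aurkb, Bub1, Bub3, Mad2l1, Cdc20, Ube2c, Pttg1, Spc25, Kif20a and Kif2c. Another 8 were lower each time: Cdc25b, Cdc25c, Cdca8, Cenpe, Kif11, Nusap1, Top2a and Mki67. Of the 11, only Cdc20, Pttg1, Spc25 and Kif20a had counting intervals above 1 at both steps, P1 over P0 and P2 over P1. Of the 8, Cdc25b, Cdc25c and Cdca8 had at least 1 step whose interval held 1. P1 was the lowest library for 14 genes, among them Cdk1 and all 3 cyclins, and the highest for 4. Over 13758 IDs with FPKM of at least 1 in any library, the same 4 orders took 31.1%, 19.1%, 22.4% and 27.1%. Neighbouring libraries share P1, so a shift of that library alone would change both steps. Counting intervals of the P1 over P0 ratio lay above 1 for 8 genes and below it for 17, where 34.5% and 22.6% of all IDs did. At P2 over P0 they lay above 1 for 12 and below it for 12, against 39.6% and 25.7% of all IDs. These counts turn on the scaling: with median-of-ratios scaling they were 4 and 26 at P1, against 24.0% and 34.9% of all IDs, and 8 and 23 at P2, against 29.1% and 37.4%. Genes with more reads have narrower intervals, and these 37 lie mostly well above the typical ID. The direction of 9 genes at P1 and 9 at P2 changed between the scalings and pseudocounts tried, among them Bub1, Bub1b, Bub3 and Tpx2 at both passages. The 9 at P1 were Tpx2, Incenp, Bub1, Bub1b, Bub3, Mad2l1, Ube2c, Kif20a and Kif2c. All of these but Incenp and Bub1b are among the 11 genes above, and their order over the 3 passages depends on the scaling.

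Transcript length moved with the differences. The 6 genes whose longest GENCODE M21 transcript was under 2 kb were Ccnb2, Aurka, Aurkb, Cdc20, Pttg1 and Spc25. All 6 were higher at P2 than at P0, with a median of 0.33 (lowest 0.02). Over all IDs, of every length, 57.7% were higher. With median-of-ratios scaling Ccnb2 and Aurka turned to -0.11 each. At P1, 4 of the 6 were higher than at P0 as deposited. The 21 genes from 2 kb to under 4 kb had a median of -0.01 at P2 against P0, with 8 higher and 13 lower. The 10 genes of 4 kb or longer had a median of -0.12. The 4 higher were Cdk1, Tpx2, Bub3 and Mad2l1, and the 6 lower were Espl1, Cenpe, Cenpf, Kif11, Top2a and Mki67. The length by which reads were divided could be much shorter than the longest transcript. It was 2798 against 7557 bases for Mad2l1 and 5318 against 10061 for Mki67. Across the 37 genes Spearman's rho of length and the P2 to P0 difference was -0.38, and across 12213 protein-coding IDs it was -0.12. These are correlations across genes of the same 2 libraries, which are not independent replicates. Over all protein-coding IDs the medians were 0.12 under 2 kb and 0.01 from 4 kb on. The part of length in the values of single genes was not tested.

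**Figure D4:**
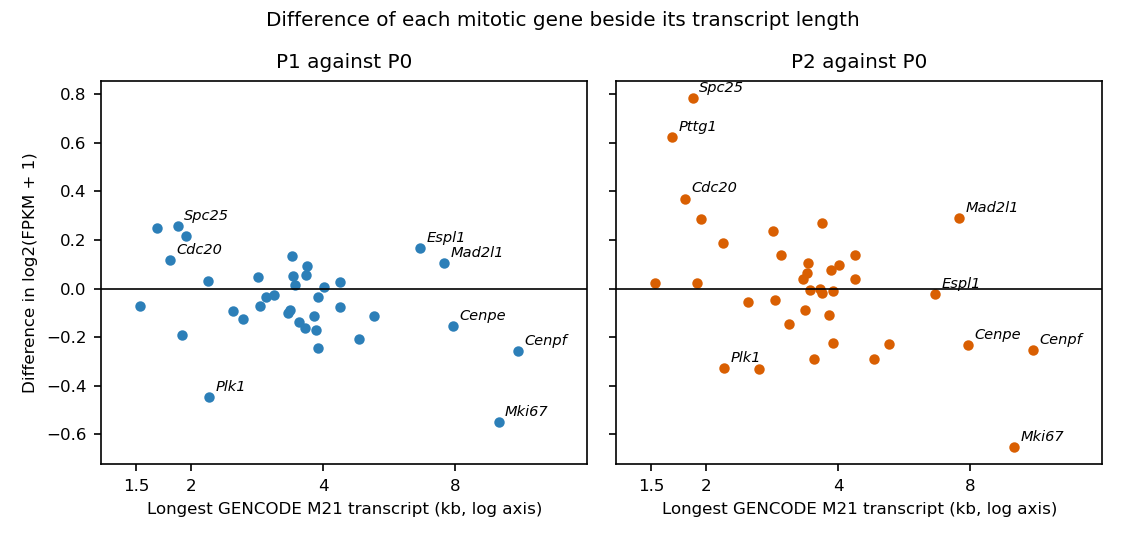
Difference in log2(FPKM + 1) of each mitotic gene beside the length of its longest GENCODE M21 transcript (kb, log axis), at P1 against P0 (left) and P2 against P0 (right). At P2 the genes under 2 kb lie above 0, up to 0.78 for Spc25, and the lowest point, -0.65, is Mki67.

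The order of levels depends on the length by which reads are divided. That length was recovered only up to a whole multiple, and the multiple nearest the mean GENCODE M21 transcript was taken, 1696 bases for Top2a, whose longest transcript has 5221. For Cdk1, whole multiples of 505 bases were possible and 1010 was used. For Ccnb1 they were multiples of 755, with 1510 used, and for Tpx2 multiples of 1224, with 2448 used. Read counts and interval widths rest on the multiple taken, while FPKM values and ratios do not. Copies of at least 95% identity over 200 or more bases were found for Ccnb1, Mad2l1, Mki67 and Ndc80. Those listed in the table were at 0.312 FPKM or less, save the Ndc80 copy 2700099C18Rik at 8.90, 7.04 and 6.41 FPKM. Reads shared with copies could be assigned to either.

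Of 36 further kinetochore genes, 1 was 2-fold higher at P2 than at P0, against 6.72% of all IDs, and 2 were 1.5-fold higher, against 15.6%. They were Cenpm, a subunit of the inner kinetochore, at 47.2, 87.3 and 175 FPKM, with a ratio of 3.71 at P2 over P0 (interval 3.44 to 4.01), and Cenpt, which links centromeric chromatin to the NDC80 complex, at 99.1, 167 and 169. The list's median was 0.05, and Oip5 and Knl1 had the largest differences below 0, at -0.27 and -0.22. At P1 Cenpm and Cenpt were already 1.5-fold higher than at P0. Of 39 spindle and cytokinesis genes, 3 were 1.5-fold higher and 1 lower at P2, against 15.6% and 4.31% of all IDs, with a median of -0.05. Ckap2, a spindle protein, measured 92.2, 161 and 178 FPKM and Fam83d, which recruits casein kinase 1 to the spindle, 17.5, 25.9 and 32.8. The third was Kif18b, a microtubule depolymerase, with a difference of 0.66. Aspm, a spindle pole protein whose loss causes microcephaly in humans, measured 33.1, 25.2 and 21.1 FPKM, and Ckap5, a microtubule polymerase, 80.2, 64.9 and 57.3.

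Of 17 APC/C genes and cofactors, 19 other mitotic kinases, phosphatases and their regulators, 21 cohesin and condensin genes and 20 centrosome genes, 0 were 1.5-fold higher or lower at P2 than at P0. Over all IDs, 15.6% were 1.5-fold higher and 4.31% lower. The medians of these lists, in that order, were -0.01, 0.07, -0.08 and -0.06. In the order of these lists, the largest differences above 0 were those of Anapc16 (0.44) and Cdc23 (0.33), Arpp19 (0.39) and Ccnf (0.25), Esco2 (0.34) and Cdca5 (0.32), and Tubgcp2 (0.42) and Ccp110 (0.40). The largest below 0 were those of Cdc26 (-0.28) and Anapc1 (-0.26), Cdc14b (-0.25) and Pbk (-0.23), Rad21 (-0.47) and Pds5a (-0.44), and Cep192 (-0.25) and Cdk5rap2 (-0.24). Pbk, a mitotic kinase, was 1.5-fold lower at P1, at -0.59. Rad21, the cohesin subunit that separase cuts, measured 129.9, 93.7 and 93.4 FPKM. Of 26 G1/S and replication genes, 0 passed 1.5-fold at P2, against the same 15.6% and 4.31% of all IDs. Of these 26, 21 were higher than at P0 by any amount, against 57.7% of all IDs, with a median of 0.17. Median-of-ratios scaling lowers the log2 of each P2 to P0 ratio by 0.13. The list holds smaller differences, such as Mcm3 (0.07) and Gins2 (0.06), so the count of 21 and the median turn on the scaling. Cdc6, which loads the replicative helicase, had 26.2, 35.7 and 39.4 FPKM and Ccne2, cyclin E2, 10.9, 12.96 and 15.99, while Pola1 and Mcm6 differed by -0.17 and -0.08.

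Among 15 regulators that act on late cell cycle promoters, 0 passed 1.5-fold at P2 and the median was -0.03. Of all IDs, 15.6% were 1.5-fold higher and 4.31% lower. Mybl2, the B-MYB subunit of MMB, was the most abundant, at 969, 861 and 789 FPKM. Rbl1, the pocket protein p107 of DREAM, measured 9.84, 5.69 and 6.997 FPKM and was 1.5-fold lower at P1, at -0.70. Its relative Rbl2 measured 2.89, 3.12 and 3.87 FPKM, and Lin37, a MuvB subunit, 17.7, 17.1 and 23.6. Cdkn1a, the CDK inhibitor p21, which is known to lower mitotic genes through DREAM, measured 21.4, 63.6 and 75.6 FPKM, and its part in the values above was not tested.

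**Figure D5:**
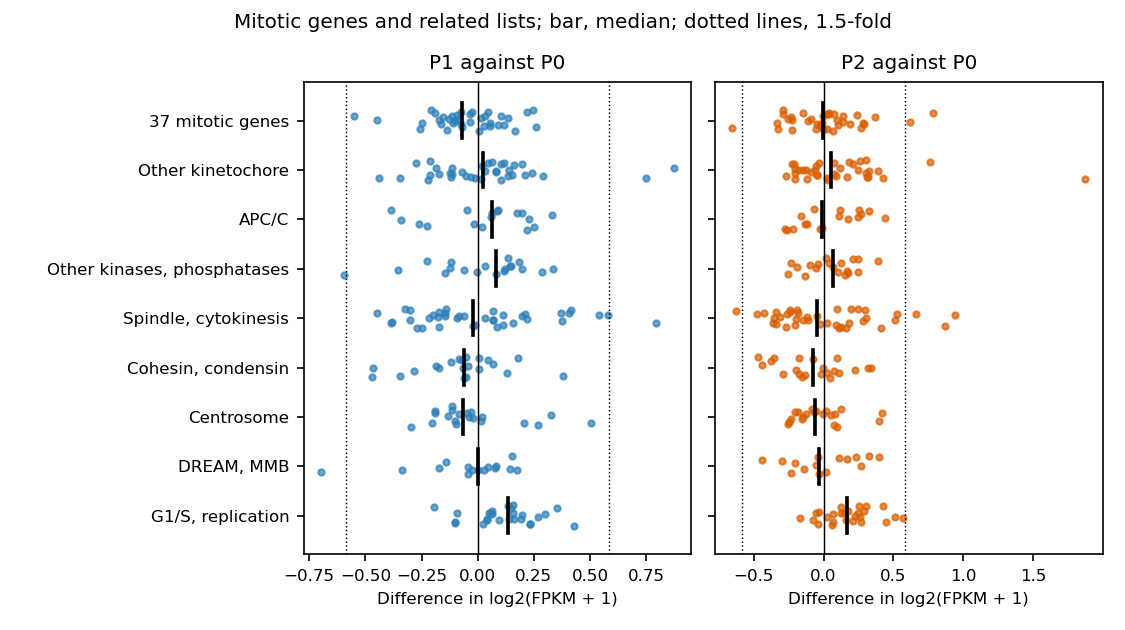
Difference in log2(FPKM + 1) at P1 against P0 (left) and P2 against P0 (right) for the 37 mitotic genes and 8 related lists (1 point per gene with FPKM of at least 1 in any library; black bars, medians; dotted lines, 1.5-fold). All medians lie between -0.08 and 0.17, and the point farthest from 0 is Cenpm, 1.87 at P2.

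Cell type markers were read in the same libraries. All 10 stem cell markers, Pou5f1, Nanog and Sox2 among them, had FPKM of at least 1 in each library, with a summed level of 4426, 4183 and 4455 FPKM, much of it from Dppa5a and Tdgf1. Klf4 was 2-fold lower at P2, with a ratio of 0.493 to P0, and Esrrb 1.5-fold lower, with a ratio of 0.535. Of all IDs, 1.16% were 2-fold lower and 4.31% were 1.5-fold lower. By any amount, 6 of the 10 markers were lower at P2 than at P0 and 4 were higher. The largest differences above P0 were those of Nanog, with a ratio of 1.34, and Dppa5a, with a ratio of 1.21. The median difference of these 10 was -0.16 at P1 and -0.18 at P2 against P0. Of 10 fibroblast markers, a check for feeder cells, 2, 3 and 3 reached FPKM 1, with a summed level of 7.68, 17.8 and 20.7 FPKM and Postn at 0 in every library. Of 9 trophoblast markers 5, 8 and 8 reached it, with sums of 72.5, 116 and 154 FPKM. Primitive endoderm (7 genes) summed to 5.77, 5.92 and 8.86 FPKM, and mesoderm (6 genes) to 2.53, 7.59 and 9.57. Only 1 of the mesoderm genes, Hand1, reached FPKM 1 in any library, at 0.827, 5.07 and 7.11 FPKM. Hand1 is also among the 9 trophoblast markers. Neuroectoderm (6 genes) summed to 139, 145 and 191 FPKM. Most of the last sum was Tubb3, at 119.9, 125 and 175 FPKM, while Pax6 measured 4.35, 1.42 and 2.14 and Sox1 1.91, 0.401 and 0.887, and 3 of the 4 genes tested were lower at P2. Whether cells of these types had a part in the mitotic gene values was not tested.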

How the data were processed

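RNA sequencing of 3 libraries, 1 per passage, was read from 1 table in which the authors deposited FPKM values, reads per gene divided by gene length and library total. The submitters' processing notes name Bowtie2 2.0.6, TopHat2 2.0.9 and build mm9. No source used here states the counting program, annotation or strand. Ensembl IDs were matched to symbols of GENCODE M21, and 49326 of 50043 IDs had one; no mm9 coordinates are used.

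Library totals were the whole numbers that made the values of genes with 1 transcript whole reads: 23213528, 18059914 and 22405670. Of 26291 IDs above 0, 26291 then gave whole reads within a relative tolerance of 1e-09 for some length, and 0 of 500 IDs did with changed totals. Lengths were taken as the multiple nearest the mean M21 transcript. At 2 kb, 3 reads equal 0.0646, 0.0831 and 0.0669 FPKM, and no molecular identifiers are named, so reads may not be independent molecules.

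Differences are in log2(FPKM + 1), which understates low genes; ratios are of FPKM. All 37 genes are named, with the 2 largest rises and 2 largest falls of each related list. Members and lists were chosen with earlier results of these data known. Steps were checked on simulated reads. Copies were sought with megablast. Alternatives were a pseudocount of 0.1, floors of FPKM 5 or none, median-of-ratios and quantile scaling, and rescaling to 1000000 without short RNA genes and unnamed models. Python 3.11.15, numpy 2.4.6, scipy 1.17.1 and pandas 2.3.3 were used.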

Additional observations from a re-analysis of the deposited data

How the results depend on the processing

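No paired analysis was possible because each passage has 1 library. No member passed 2-fold in any comparison under any of the 6 alternatives. A pseudocount of 0.1, both other floors and the rescaled table were also tried. The lowest level of the 37 was 9.86 FPKM, so the other floors could not change their counts or medians. At these levels a pseudocount of 0.1 can move them little. With it the medians at P1 and P2 against P0 were -0.07 and -0.001, and with the rescaled table -0.07 and 0.01. The counts past 1.5-fold were those of the deposited values in both. The shares of all IDs past 1.5-fold moved more. At P2 against P1 the share higher was 3.61% as deposited, 6.51% with the pseudocount of 0.1 and 1.79% with the floor of FPKM 5. With median-of-ratios scaling the median of the 37 genes was -0.19 at P1 and -0.13 at P2 against P0, since this scaling lowers every ratio by a fixed factor. Under that scaling and under quantile normalization, 1 gene (Mki67) was 1.5-fold lower at P1 against 0 as deposited, and 1 gene (Spc25, without Pttg1) was 1.5-fold higher at P2 against 2; the cause was not tested for quantile normalization. Of 111 differences of single members, 21 changed sign under at least 1 alternative. Scaling the counting intervals was chosen after seeing the data. So was dividing reads by the longest transcript, whose order of levels rests on the multiple taken for each length and is not reported. One library per passage is the main limit: counting error was small for these genes, and the spread between cultures is unknown.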
